A study of Mus musculus with 12 samples.

Results

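RNA from mouse embryonic fibroblasts (MEFs) with a deletion of Rb1 (Rb1KO) was compared with RNA from wild-type (WT) MEFs, 3 arrays against 3, which are 6 of the 12 arrays of the series, over all 18194 genes that could be read. MEFs are cells grown out of mouse embryos that divide in culture and lay down connective tissue matrix. By their labels, all cultures were untreated and growing exponentially, and 100 ng of total RNA went onto each Affymetrix MOE430 2.0 array. MEFs with deletions of Rb1, p107 (Rbl1) and p130 (Rbl2), called TKO, are set beside them as a second knockout. The study asked what the Rb family does to gene expression. Its design text speaks of biological triplicates of each cell line, which reads as 1 line per genotype, so the effect of the genotype and that of the line (its origin, sex, clone or history in culture) cannot be told apart. The labels name no separate embryos or cultures, and p-values then measure only the spread between these RNA samples. How the Rb1KO MEFs were made and which part of Rb1 is missing are not given in the sources used here.

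The retinoblastoma protein, encoded by Rb1, and its relatives p107 and p130 are the pocket proteins, which bind E2F transcription factors and keep the genes of DNA synthesis silent until cyclin D and cyclin E kinases phosphorylate them. With DP partners and the MuvB core, p107 and p130 also form the DREAM complex, which holds back cell cycle genes in resting cells. MuvB later joins B-Myb and FoxM1 to switch on the genes of mitosis, many of which carry a short promoter element named CHR. The Rb pathway is also known for its part in cell cycle exit and differentiation of mesenchymal cells.

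Values are on the log2 scale of RMA, where a difference of 1 is a 2-fold change. A value of 5.13 is taken as background, the 95th percentile of the probe sets of olfactory receptors, genes that fibroblasts should not use. A gene whose arrays all lie at or below it in 1 group has its fold given as a minimum, taken against that level. Counts of genes by size of fold use the fitted values instead. A gene is called higher or lower at an adjusted p under 0.05 from limma, over all probe sets and all 12 arrays. An exact permutation test of 3 arrays against 3 cannot go below p = 0.1.

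The 3 Rb1KO arrays were alike, with correlations over all probe sets of 0.9926 to 0.9958. WT replicate 3 stood apart, at 0.9777 and 0.9695 with WT replicates 1 and 2, which correlated at 0.9946 with each other. Among the 12948 genes above background on any of the 6 arrays, the median SD was 0.200 in WT MEFs and 0.138 in Rb1KO MEFs, and WT replicate 3 lay farthest from the WT median for 61.0%. Sex-linked genes differed between the WT arrays as well. Xist, the RNA that silences an X chromosome in female cells, was 10.73, 8.79 and 11.57 on WT replicates 1 to 3, and the Y-linked Eif2s3y was 8.63, 9.12 and 4.91. WT replicates 1 and 2 thus had both RNAs above background, and WT replicate 3 had Xist alone. Whether the WT arrays come from 1 line was not tested. On every Rb1KO array both were at background, with Xist between 4.63 and 4.98 and Eif2s3y between 3.01 and 3.16, so the WT and Rb1KO cultures also differed in sex-chromosome transcripts.

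Vim, the intermediate filament protein of mesenchymal cells, was between 14.13 and 14.47 on all 6 arrays and S100a4 between 13.34 and 13.99, both without a call. Of 18 measured fibroblast surface and identity genes, 9 were lower in Rb1KO MEFs, 1 was higher and 8 did not pass the test (the background being 12.3% of all genes lower and 15.6% higher, and 27.9% called in all). Thy1, a surface glycoprotein of fibroblasts, was 11.10, 10.41 and 10.99 in WT MEFs and 5.94, 6.62 and 6.73 in Rb1KO MEFs, a fall of 4.40 on the log2 scale (adjusted p = 2.9e-07). Nt5e, an ecto-nucleotidase, was at least 4.69-fold lower, and Pdpn had a log2 fold change of -1.86. Cd34, a sialomucin of fibroblasts and progenitor cells, was the member that was higher (1.87, adjusted p = 0.042, a call lost in 5 of the 6 fits with 1 of these arrays left out, all except that without WT replicate 3, where it was 2.75). Pdgfra, a growth factor receptor of fibroblasts, spread from 6.71 to 11.54 in WT MEFs and lay between 8.32 and 9.16 in Rb1KO MEFs.

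Markers of other cell types were read on the same arrays. Cdh5 and Pecam1 of endothelium, Ptprc and Adgre1 of leukocytes, Cdh1 of epithelium, Myod1 of muscle and Adipoq of fat were at background in both groups. The summed level of a marker list is given on the log2 scale. It ran from 9.17 to 10.01 on the WT arrays and from 9.47 to 9.65 on the Rb1KO arrays for 13 epithelial markers, from 9.21 to 9.48 and from 9.87 to 10.02 for 14 endothelial ones, and from 8.89 to 8.96 and from 8.98 to 9.09 for 15 of leukocytes. For muscle the sums ran from 9.07 to 10.52 and from 9.34 to 10.06 over 15 markers, for fat from 10.78 to 12.58 and from 11.14 to 11.85 over 10, and for neural and glial cells from 11.73 to 12.27 and from 11.22 to 11.77 over 17. At background on all 6 arrays were 7 of the epithelial markers, 8 of the endothelial, 9 of the leukocyte, 8 of the muscle, 4 of the fat and 5 of the neural ones. The endothelial and leukocyte sums were thus slightly higher on the Rb1KO arrays without overlap, while 44.1% of all genes had no overlap. Of the 14 endothelial markers 3 were called higher and 1 lower, and of the 15 of leukocytes 0 and 1. That is 28.6% and 6.67% called, beside 27.9% of all genes. The endothelial marker called lower was Tek (-0.67) and the leukocyte one Lyz2 (-0.72). Flt1, a receptor of vascular growth factors, rose by 2.08 (adjusted p = 1.6e-05). Map2, a microtubule protein of neurons that was well above background here, was 10.28, 10.18 and 10.72 against 8.49, 8.24 and 8.04. The cartilage and bone sum ran from 11.53 to 12.23 in WT MEFs and from 10.33 to 10.59 in Rb1KO MEFs. Of its 15 markers, however, 3 were called higher and 2 lower, with a median log2 fold change of -0.01. In that list Col2a1 and Col11a1, collagens of cartilage, had log2 fold changes of -3.11 and -2.96. Acan, the proteoglycan of cartilage, was instead at background in WT MEFs and at least 4.51-fold higher in Rb1KO MEFs. Phex was higher as well (fitted 1.86). The part of other cells in the results was not tested, and in RNA from whole cultures fewer cells of a type and less RNA per cell cannot be told apart.

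Of the pocket proteins, Rb1 and Rbl2 were lower in Rb1KO MEFs. Rb1 was 8.49, 8.70 and 8.31 in WT MEFs and 7.51, 7.74 and 7.51 in Rb1KO MEFs, a 1.89-fold decrease (log2 fold change -0.92 with a standard error of 0.143, limma adjusted p = 7.9e-04). The groups did not overlap, but the Rb1KO arrays stayed far above background, and 1 of the 2 Rb1 probe sets, at background on all 6 arrays, did not pass. A probe set outside the deleted part checks nothing about the deletion, and where the Rb1 probe set lies relative to it is not known. Rbl2 was 7.54, 7.72 and 7.90 against 4.47, 3.80 and 4.27, below background on every Rb1KO array and at least 6.01-fold lower (adjusted p = 1.6e-06). Its other probe set fell by 1.92 (adjusted p = 2.7e-05). The 3 libraries labelled as Rb1 deletion were thus low in Rbl2 RNA as well, and in every result that follows the loss of Rb1 and the low level of Rbl2 cannot be told apart. Neighbours were taken among genes above background on an array of WT or Rb1KO MEFs. Among the 10 nearest to Rbl2, 5 on each side, 1 was lower and 1 higher, with a median of -0.03. Among the 10 nearest to Rb1, 3 were lower and 3 higher, with a median of 0.11. These ran from -1.97 for Fndc3a to 1.07 for Med4. On the autosomes and X, 13.9% to 27.7% of such genes were higher and 10.5% to 21.9% lower. Rbl1, itself an E2F target, was 8.23, 8.32 and 8.18 against 9.0, 8.32 and 8.89 and did not pass (0.49, adjusted p = 0.20). In TKO MEFs Rbl1 was 4.79, 5.12 and 4.42, so the Rb1KO arrays differed from the TKO arrays in it (log2 difference TKO minus Rb1KO -3.96, adjusted p = 3.8e-06).

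**Figure D1:**
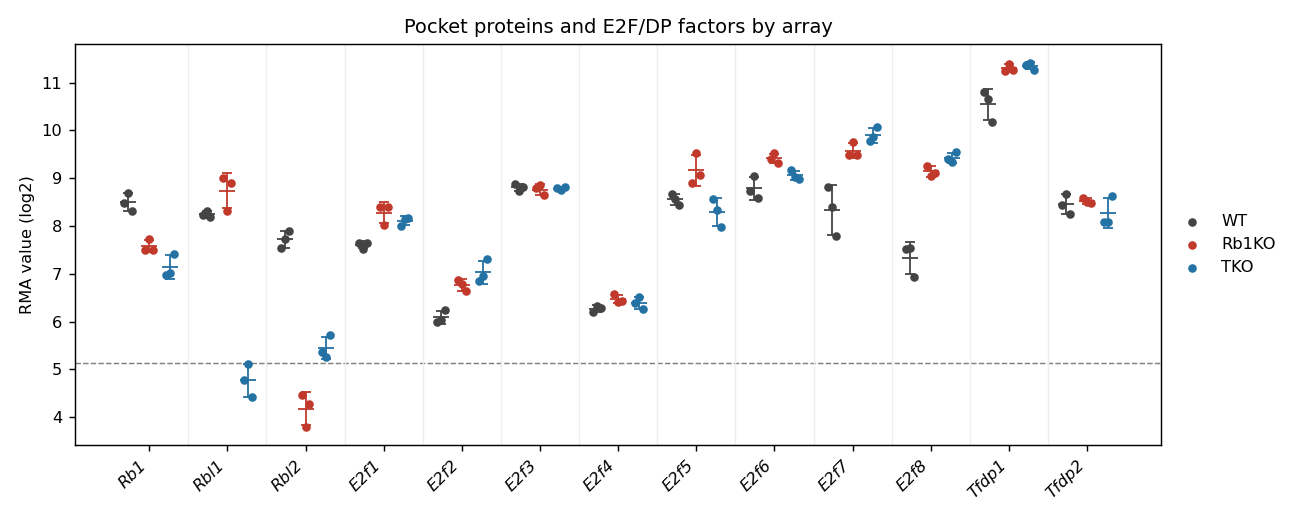
RMA values (log2) of the 3 pocket protein genes and 10 E2F and DP factors, 1 point per array for WT, Rb1KO and TKO MEFs, with the mean and SD of 3 arrays, and dashes at 5.13, the level of background. Rbl2 lies below the dashes on every Rb1KO array, Rbl1 lies below them on every TKO array, and E2f7 and E2f8 are higher in both knockouts.

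Of the 10 E2F and DP factors, 7 were higher in Rb1KO MEFs, 0 lower and 3 did not pass, with a median log2 fold change of 0.65 beside 0.08 over all genes. E2f8, an atypical repressor that E2F itself induces, rose most, from 7.51, 7.53 and 6.94 to 9.26, 9.05 and 9.11 (1.81, adjusted p = 1.2e-05). Its partner E2f7 rose by 1.24, the DP subunit Tfdp1 by 0.76, and the activators E2f1 and E2f2 by 0.67 and 0.68. The activator E2f3 (-0.05), the repressor E2f4 (0.20) and the DP subunit Tfdp2 (0.07) did not pass. Of the MuvB core, Lin9 rose by 1.50 and Lin54 by 1.22, while Lin37 (-0.15) and Lin52 (0.05) did not pass.

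The genes of DNA replication rose together. All 33 measured genes for replicating DNA and making nucleotides, of 34 listed, were higher in Rb1KO MEFs. Each rose by a fitted 2-fold or more (4.77% of all genes did). The median log2 fold change was 1.61 and the range 1.15 to 2.96. Cdc6, which loads the MCM helicase onto origins, was 7.42, 7.31 and 6.42 in WT MEFs and 10.05, 9.85 and 10.11 in Rb1KO MEFs, a 7.76-fold increase (log2 fold change 2.96, standard error 0.215, adjusted p = 4.9e-06). The helicase subunit Mcm3 was 9.26, 8.94 and 8.67 against 11.19, 11.15 and 11.19 (2.21, adjusted p = 1.7e-06). Every Rb1KO array lay above every WT array for both genes. Gins1, a subunit of the active helicase, rose by 2.50 and the initiation factor Mcm10 by 2.21. Tyms, the thymidylate synthase, was at background in WT MEFs and at least 1.73-fold higher. All 33 calls held without any 1 of the 6 arrays.

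Of 13 G1/S cyclins and regulators, 11 rose and 2 did not pass (median 1.43). Uhrf1, which guides DNA methylation to newly copied strands, rose by 2.12, the B-Myb gene Mybl2 by 1.94, the licensing inhibitor Gmnn by 1.85 and cyclin A, Ccna2, by 1.76. Ccne1 (-0.00, adjusted p = 0.99) and Cdc25a (0.39, adjusted p = 0.12) did not pass, although both are textbook E2F targets. Of 20 genes of DNA repair and the checkpoint, 17 rose and 3 did not pass (median 1.43), led by the exonuclease Exo1 (2.25), the recombination factor Rad54l (2.03), the fork protein Timeless (2.03) and Brca1 (1.92).

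The genes of mitosis rose as well. Of 29 measured genes of mitosis and the spindle, 28 were higher and 1, the cyclin Ccnb2, did not pass (0.24, adjusted p = 0.40), with a median of 1.25, and 24 of the 28 rose by 2-fold or more. The kinase Aurkb of the chromosomal passenger complex was 8.23, 8.31 and 7.70 against 10.26, 10.14 and 10.25 (2.14, adjusted p = 3.0e-06). Its partner survivin, Birc5, rose by 1.87, the phosphatase Cdc25b by 1.83 and the centrosome kinase Nek2 by 1.80. WT replicate 3 was the lowest WT array for Cdc6, Mcm3, Aurkb and Birc5. Without it the medians were 1.44 for replication and 1.09 for mitosis, with 33 and 28 genes higher.

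Promoters of these genes were searched for 2 motifs in the RefSeq windows of GRCm38.p6 that run from 250 bases before to 50 bases after a start. The E2F letters searched were TTTCCCGC, TTTCGCGC, TTTGCCGC and TTTGGCGC, and the CHR letters TTTGAA, each on both strands. The E2F letters were found in 42.9% of the 28 replication genes with a window, in 26.7% of 15 repair genes and in 4.17% of 24 mitosis genes, against 3.80% of the genes read here and 2.60% of all genes with a window. The CHR letters were found in 70.8% of the mitosis genes, 17.9% of the replication genes and 0 of 15 repair genes, against 15.7% of the genes read here and 20.2% of all genes. A gene may have several windows and is counted once if any holds the letters. By the same count the E2F letters were in 11.2% of the genes higher by 2-fold or more and in 2.32% of those lower by 2-fold or more. A match is a string of letters and not a proven site. The stretches from 150 bases before to 30 bases after the start of 3 replication genes with E2F letters and 3 mitosis genes with CHR letters are shown, with the match in capitals, to show where the match lies relative to the start. They are at chr11:98908001-98908180 on the plus strand for Cdc6, chr1:20820283-20820462 on the minus strand for Mcm3, chr8:75109359-75109538 on the plus strand for Mcm5, chr9:83834539-83834718 on the plus strand for Ttk, chr11:99024160-99024339 on the minus strand for Top2a and chr7:80294301-80294480 on the plus strand for Prc1.
Cdc6: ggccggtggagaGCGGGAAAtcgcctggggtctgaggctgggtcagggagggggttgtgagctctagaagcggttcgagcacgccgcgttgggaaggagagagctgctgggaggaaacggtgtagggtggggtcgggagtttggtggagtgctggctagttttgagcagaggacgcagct
Mcm3: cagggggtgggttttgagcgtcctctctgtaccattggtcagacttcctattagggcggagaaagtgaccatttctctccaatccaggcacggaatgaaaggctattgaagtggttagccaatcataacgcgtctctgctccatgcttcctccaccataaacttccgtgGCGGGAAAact
Mcm5: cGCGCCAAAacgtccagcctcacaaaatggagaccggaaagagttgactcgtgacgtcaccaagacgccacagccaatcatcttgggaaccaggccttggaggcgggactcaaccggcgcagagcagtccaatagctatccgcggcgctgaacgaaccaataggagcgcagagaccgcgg
Ttk: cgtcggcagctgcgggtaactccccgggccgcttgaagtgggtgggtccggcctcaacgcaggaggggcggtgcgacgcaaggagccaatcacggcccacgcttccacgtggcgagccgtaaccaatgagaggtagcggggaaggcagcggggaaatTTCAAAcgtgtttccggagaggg
Top2a: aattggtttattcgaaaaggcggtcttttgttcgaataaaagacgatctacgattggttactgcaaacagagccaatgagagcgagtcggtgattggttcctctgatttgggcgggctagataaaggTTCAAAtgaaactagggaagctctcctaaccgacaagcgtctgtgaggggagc
Prc1: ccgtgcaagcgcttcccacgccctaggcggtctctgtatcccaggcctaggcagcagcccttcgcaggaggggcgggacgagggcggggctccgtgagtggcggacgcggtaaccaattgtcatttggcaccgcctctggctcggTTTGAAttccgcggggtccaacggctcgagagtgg

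In these stretches the letters began 138 bases before the start in Cdc6, 149 before it in Mcm5, 23 before it in Top2a and 5 before it in Prc1, and at position 20 after the start in Mcm3 and position 8 after it in Ttk. Beside them stand log2 fold changes of 2.96 for Cdc6, 2.21 for Mcm3, 2.17 for Mcm5, which encodes another helicase subunit, 1.69 for the checkpoint kinase Ttk, 1.45 for the topoisomerase Top2a and 1.39 for the spindle midzone protein Prc1.

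Over all 18194 genes, 2833 were higher in Rb1KO MEFs and 2243 lower. By 2-fold or more, 868 were higher and 1034 lower (5.68%), and by 8-fold or more 25 were higher and 147 lower. The larger changes were thus mostly decreases. Which direction has more calls depends on the scaling between arrays: with cyclic loess 2170 genes were higher and 2816 lower, and the median log2 fold change of all genes moved from 0.08 to 0.01. Of the 5076 genes called, 5007 did not overlap between the groups, as 44.1% of all genes did not. At background were 102 of the higher genes in WT MEFs and 250 of the lower ones in Rb1KO MEFs.

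**Figure D2:**
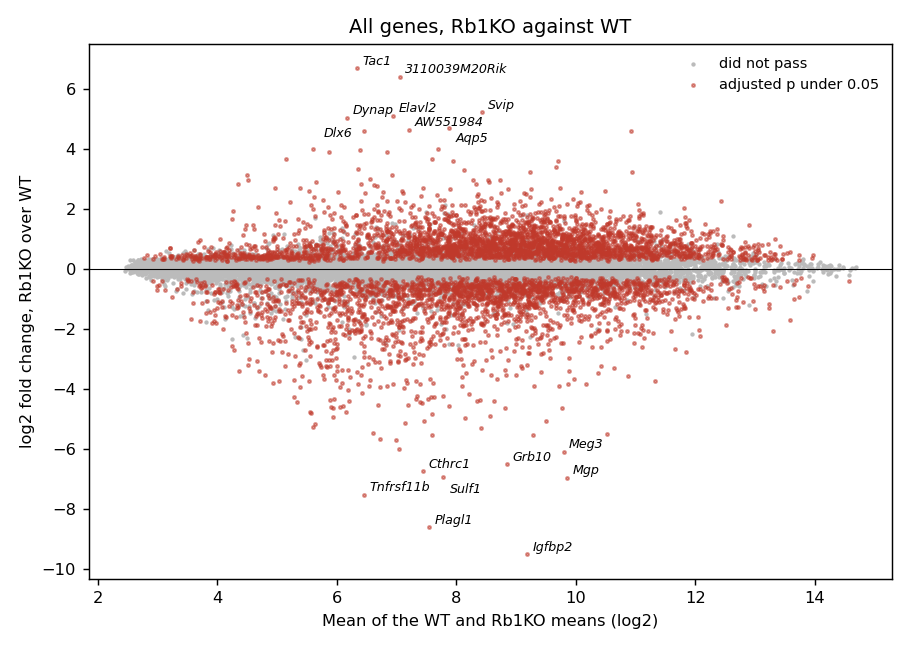
Log2 fold change of Rb1KO over WT MEFs (vertical axis) against the mean of the WT and Rb1KO means (log2, horizontal axis) for 18194 genes, with genes called at an adjusted p under 0.05 in red and named for the 8 highest and 8 lowest. Below a change of -6 lie Igfbp2, Plagl1, Tnfrsf11b, Mgp, Sulf1, Cthrc1, Grb10 and Meg3, while above 6 lie Tac1 and 3110039M20Rik.

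Of 12 CDK inhibitors, D cyclins and their kinases, 3 were lower, 2 were higher and 7 did not pass. That is 41.7% called, beside 27.9% of all genes. The cyclin Ccnd2, which activates CDK4 and CDK6, was 13.49, 13.57 and 12.79 in WT MEFs and 8.69, 6.94 and 7.69 in Rb1KO MEFs, a 45.4-fold decrease (log2 fold change -5.50, standard error 0.362, adjusted p = 2.5e-06). All 7 of its probe sets fell. Ccnd3 had a log2 fold change of -1.28, and Ccnd1, the cyclin most used by fibroblasts, did not pass (0.01, adjusted p = 0.98). The inhibitors p19Ink4d and p18Ink4c, from Cdkn2d and Cdkn2c, rose by 0.96 and 0.71. The call of Cdkn2c (adjusted p = 0.032) was lost without any 1 array other than WT replicate 3. Cdkn2a, which encodes p16Ink4a and Arf, was 12.08, 11.20 and 12.97 against 12.99, 13.32 and 13.24 and did not pass (1.10, adjusted p = 0.19), and Cdkn2b, for p15Ink4b, did not pass either (0.17, adjusted p = 0.73). Both genes were thus read at high values in Rb1KO MEFs, whereas in TKO MEFs Cdkn2a was 6.20, 6.10 and 4.07 and Cdkn2b was between 4.14 and 4.79 (log2 differences TKO minus Rb1KO -7.73 and -6.16, adjusted p = 7.7e-06 and 3.7e-07).

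Of 25 measured p53 targets, of 28 listed, 12 were lower in Rb1KO MEFs, 0 were higher and 13 did not pass (12.3% of all genes were lower). The median log2 fold change was -0.49, and -1.04 without WT replicate 3. Without any 1 of the 6 arrays, 8 to 12 were lower, and 1 was higher without WT replicate 1 or WT replicate 3. Trp53inp1, which promotes p53 activity and autophagy, was 11.43, 11.36 and 10.93 against 7.51, 6.36 and 8.18 (-3.89, adjusted p = 6.6e-05). Eda2r, a death receptor, lay at background in Rb1KO MEFs and was at least 5.66-fold lower (fitted -3.69, -4.61 without WT replicate 3 and -3.11 without WT replicate 2). The CDK inhibitor p21, from Cdkn1a, was 11.52, 11.84 and 9.70 against 8.27, 8.50 and 8.91 (-2.46, adjusted p = 0.0015, and -3.12 without WT replicate 3). Cyclin G, Ccng1, had a log2 fold change of -2.05, and -2.71 without WT replicate 3. The ubiquitin ligase Mdm2, the feedback inhibitor of p53, did not pass (-0.58, adjusted p = 0.21). In TKO MEFs 10 of the 25 genes were higher than in Rb1KO MEFs and 0 lower (5.92% and 3.63% of all genes were), among them Cdkn1a (10.94, 11.27 and 11.04, a log2 difference of 2.52, adjusted p = 0.0037) and Trp53inp1 (3.49, adjusted p = 4.1e-04).

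Imprinted genes, which are transcribed from only the maternal or the paternal copy, held several of the largest decreases. Meg3 (Gtl2), the maternally expressed noncoding RNA of the Dlk1-Dio3 locus, was 12.83, 12.94 and 12.75 in WT MEFs and 6.36, 7.13 and 6.78 in Rb1KO MEFs, a 68.0-fold decrease (log2 fold change -6.09, standard error 0.205, adjusted p = 2.2e-08). Of its 11 probe sets 10 fell, and 1, close to background in both groups, did not pass. Rian, the noncoding RNA that hosts snoRNAs, fell by 5.29, and Mirg, which hosts microRNAs, sank to background, at least 1.67-fold lower. The other Mirg probe set, at means of 7.79 in WT and 3.86 in Rb1KO MEFs, had a log2 fold change of -3.94 (limma adjusted p = 2.2e-07). The paternally expressed Dlk1 did not pass (-0.51, adjusted p = 0.35). In TKO MEFs Meg3 was lower still, at 5.56, 5.93 and 6.01 (log2 difference TKO minus Rb1KO -0.92, adjusted p = 0.019).

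Of 26 other imprinted genes, 8 were lower, 3 were higher and 15 did not pass, a share of 42.3% called beside 27.9% of all genes. The median log2 fold change was -0.15 (0.04 without WT replicate 3). The number higher was 1 without Rb1KO replicate 1, Rb1KO replicate 2 or WT replicate 1, and 5 without WT replicate 3. Plagl1 (Zac1), a zinc finger factor and a regulator of other imprinted genes, was 11.13, 11.55 and 12.89 in WT MEFs and 3.11, 3.56 and 3.08 in Rb1KO MEFs, all below background, a decrease of at least 105-fold (adjusted p = 6.7e-08). Of its 3 probe sets 2 fell and 1 did not pass. Grb10, an adaptor that dampens insulin and IGF signalling, was 12.98, 13.16 and 10.17 against 5.97, 5.05 and 5.77 (-6.51, adjusted p = 4.1e-05, and -7.47 without WT replicate 3). In TKO MEFs Plagl1 was 9.04, 8.94 and 8.87 and Grb10 between 8.52 and 8.72, each well above its Rb1KO values (log2 differences TKO minus Rb1KO 5.70 and 3.02, adjusted p = 2.0e-06 and 0.017). This difference was seen only on the probe set used for each gene. The other probe sets of both genes were at background in TKO MEFs, and dim in WT MEFs, with means of 4.83 to 5.95. Peg3, a paternally expressed zinc finger gene, fell by 3.14, Ndn by 2.80, and the receptor Igf2r and its antisense Airn by 2.21 and 2.12. The amino acid transporter Slc38a4 went the other way, from 8.02, 6.5 and 9.18 to 11.35, 11.41 and 11.74 (3.60, adjusted p = 2.9e-04, 4.24 without WT replicate 3 and 2.90 without WT replicate 2). Cdkn1c did not pass (-0.11), nor did Igf2, which spread from 8.56 to 14.13 on the WT arrays (-2.00, adjusted p = 0.21).

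**Figure D3:**
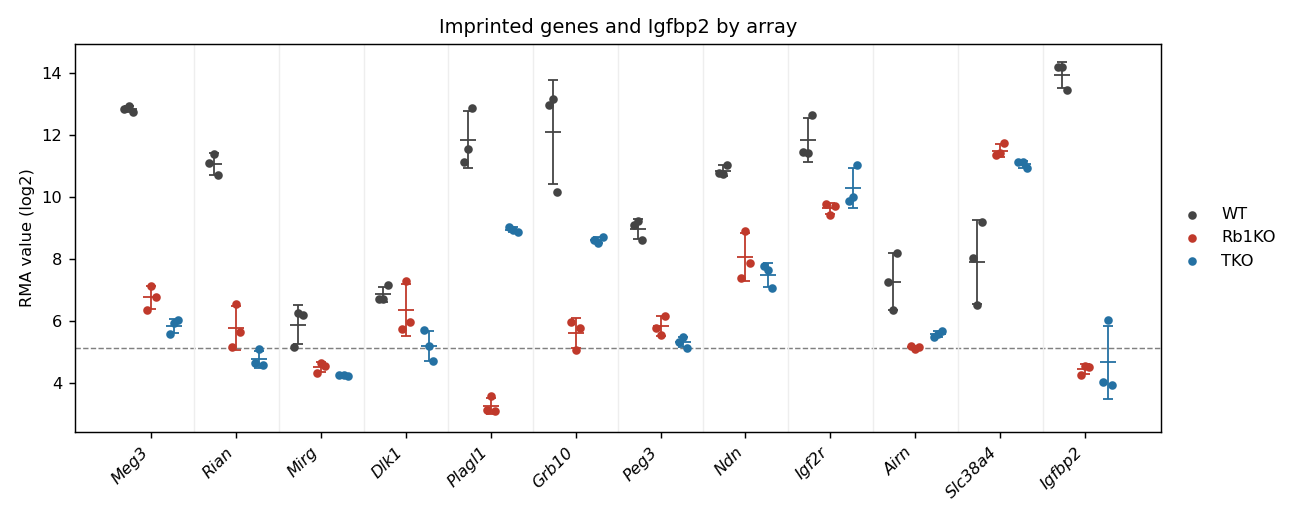
RMA values (log2) of 4 genes of the Dlk1-Dio3 locus, 7 other imprinted genes and Igfbp2, 1 point per array for WT, Rb1KO and TKO MEFs, with the mean and SD of 3 arrays and dashes at 5.13, the level of background. Plagl1 sits between 3.08 and 3.56 in Rb1KO MEFs and between 8.87 and 9.04 in TKO MEFs, whereas Meg3 and Igfbp2 are low in both knockouts.

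The largest decrease of all was that of Igfbp2, a secreted carrier of insulin-like growth factors. It was 14.20, 14.19 and 13.46 in WT MEFs, among the brightest values on the arrays, and 4.25, 4.55 and 4.51 in Rb1KO MEFs, at background and at least 450.1-fold lower (fitted log2 fold change -9.51, adjusted p = 2.0e-07). In TKO MEFs it was 4.02, 6.01 and 3.94, and the difference between the knockouts did not pass (0.22, adjusted p = 0.85). Of 15 genes of the IGF axis 7 were lower, 2 higher and 6 did not pass (median -1.32). Igfbp7 had a log2 fold change of -1.86, the type 1 receptor Igf1r one of -1.32 and the adaptor Irs1 one of -1.43. Igfbp4 had one of -2.24 (adjusted p = 0.031, a call lost without any 1 Rb1KO array, and -1.19 without WT replicate 3). Igfbp6, in contrast, rose by 1.73.

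Genes of DNA methylation and of the Polycomb group, which mark silent chromatin, were read as lists of their own. The maintenance methyltransferase Dnmt1 was 9.93, 9.62 and 9.82 against 11.40, 11.22 and 11.46 (1.57, adjusted p = 5.9e-06). Dnmt3a, a de novo methyltransferase, was 7.89, 8.10 and 8.67 against 5.97, 5.69 and 5.83 (-2.39, adjusted p = 2.7e-05). Together with Uhrf1, 2 of 9 genes of DNA methylation were thus higher and 1 lower, a share of 33.3% called beside 27.9% of all genes. In TKO MEFs Dnmt1 did not pass against Rb1KO MEFs (-0.30, adjusted p = 0.17) and Dnmt3a was higher (2.02, adjusted p = 2.5e-04). Of 16 Polycomb genes 7 were higher and 0 lower (43.75% called), led by the histone methyltransferase Ezh2 (1.44) and its partner Suz12 (1.22). Only 3 were higher without Rb1KO replicate 1.

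Most of the extracellular matrix genes that changed were lower, while Prelp and, in the cartilage list, Acan were higher. Of 26 collagens, 15 were lower, 0 higher and 11 did not pass, the median log2 fold change being -1.34 (-1.29 with members at background set to their bounds). Col5a1, a regulator of fibril diameter, was 13.24, 13.27 and 13.18 in WT MEFs and 10.37, 10.56 and 10.49 in Rb1KO MEFs (-2.76, standard error 0.118, adjusted p = 1.3e-07). Col1a1, the main fibril collagen, was 12.34, 12.66 and 12.88 against 10.56, 10.49 and 10.64 (-2.07, adjusted p = 1.9e-05). The groups of both genes lay far apart. Col11a1 and Col12a1 had log2 fold changes of -2.96 and -2.43, and Col3a1 one of -1.35. In TKO MEFs 6 collagens were higher than in Rb1KO MEFs and 3 lower. Col3a1 lay between 14.22 and 14.37 there (log2 difference TKO minus Rb1KO 1.97, adjusted p = 8.0e-04).

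Of 36 matrix glycoproteins, proteoglycans and elastic fibre genes, 16 were lower, 1 was higher and 19 did not pass, with a median of -1.05. Fibronectin, Fn1, was 14.49, 14.59 and 14.21 against 12.86, 12.61 and 12.72 (-1.70, adjusted p = 1.7e-04). Ogn (osteoglycin), a small proteoglycan, had a log2 fold change of -3.83, Ltbp2, a microfibril protein, one of -3.55, and Thbs2 (thrombospondin 2), a regulator of collagen fibrils, one of -3.47 (-2.56 without WT replicate 3 and -4.21 without WT replicate 2). Without Rb1KO replicate 2 the value for Ltbp2 was -4.28, and without WT replicate 3 that for Ogn was -3.18. Mfap5, another microfibril protein, sank to background, at least 6.53-fold lower (fitted -3.70, and -4.53 without WT replicate 3). The member that was higher was Prelp (0.58, adjusted p = 0.048), and 0 members were higher without any 1 array other than WT replicate 3. Of 21 matrix proteases and inhibitors 9 were lower and 0 higher, among them the aggrecanase Adamts5 (-3.45, and -2.64 without Rb1KO replicate 2) and the gelatinase Mmp2 (-2.31).

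**Figure D4:**
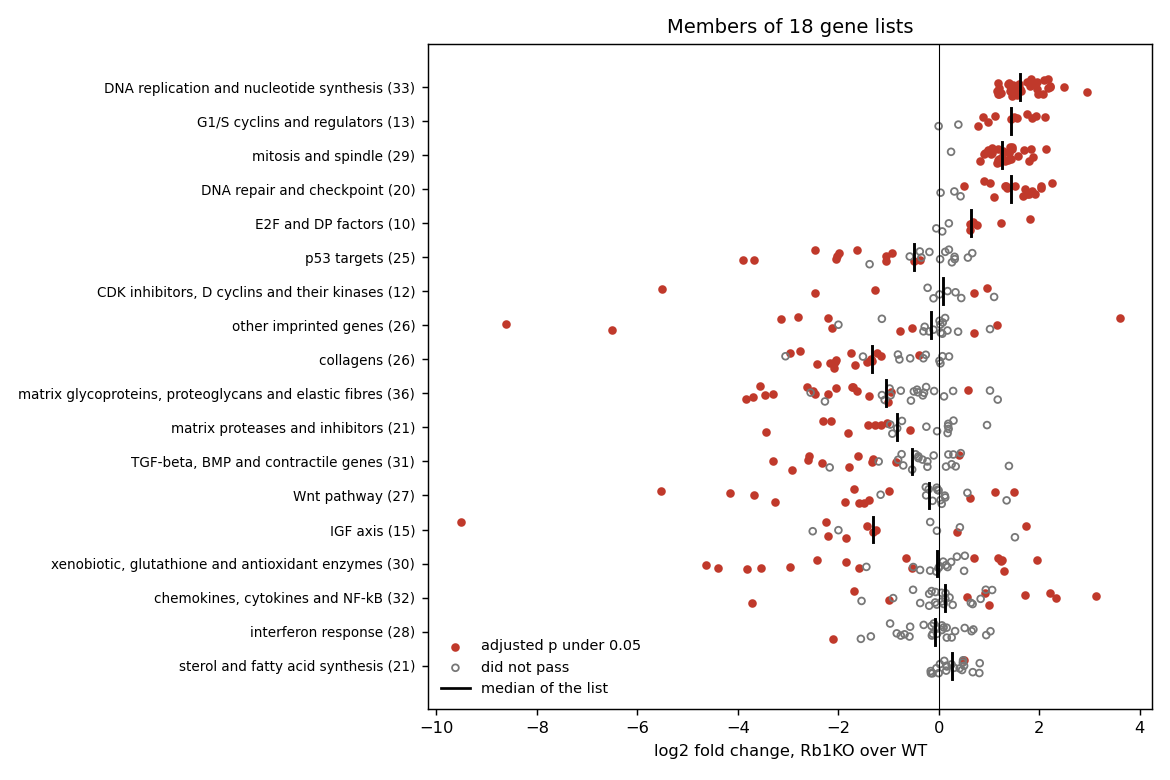
Log2 fold change of Rb1KO over WT MEFs for each measured member of 18 gene lists, filled red where the adjusted p is under 0.05 and open where it is not, with a bar at the median of the list and the number measured in brackets. All 33 replication genes lie to the right of 0, while the collagens and p53 targets called in the fit to all arrays lie to its left.

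Contractile and growth factor genes were read as lists of their own. Of 31 genes of TGF-beta and BMP signalling and of the contractile apparatus, 10 were lower, 1 was higher and 20 did not pass. The share called was 35.5%, beside 27.9% of all genes. Without WT replicate 3, 16 were lower. The smooth muscle actin Actg2 fell by 3.30, the light chain Myl9 by 2.59 and the ligand Tgfb2 by 2.61. The contractile protein Cnn1 stood at -2.92 (adjusted p = 0.017, not passing without Rb1KO replicate 3, WT replicate 1 or WT replicate 2, and -3.98 without WT replicate 3). Of 30 growth factors and receptor kinases, 5 were lower and 4 higher, and 8 and 8 without WT replicate 3. These 9 calls among 30 genes were close to the 27.9% of all genes. The ligand Pdgfd was 8.47, 8.74 and 7.45 against 3.02, 2.80 and 3.34, at background and at least 8.51-fold lower. Gas6, the ligand of the TAM receptors, fell by 4.98 (4.20 without WT replicate 3) and the ephrin receptor Epha4 by 4.47, whereas the ligand Pdgfb rose by 1.52.

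Of 27 genes of the Wnt pathway, 10 were lower, 3 were higher and 14 did not pass, a share of 48.1% called beside 27.9% of all genes. The median was -0.20 (-0.12 with members at background set to their bounds). The R-spondins, secreted proteins that raise the level of Wnt receptors, changed most. Rspo2 was 12.09, 11.63 and 12.46 in WT MEFs, 6.67, 6.59 and 6.30 in Rb1KO MEFs and 11.81, 12.54 and 12.50 in TKO MEFs. A second Rspo2 probe set, at means of 6.5 and 6.57 in WT and Rb1KO MEFs, did not pass (0.06, adjusted p = 0.83). On the brighter probe set the log2 fold change in Rb1KO MEFs was -5.54 (adjusted p = 1.1e-07) and the log2 difference TKO minus Rb1KO 5.76 (adjusted p = 1.1e-07). Rspo3 fell by 4.16 (3.56 without Rb1KO replicate 2), the secreted protein Dkk3 by 3.67 (2.94 without WT replicate 3, 4.30 without WT replicate 2) and the Wnt-induced matrix protein Ccn5 by 3.25. Without Rb1KO replicate 1, WT replicate 1 or WT replicate 2 a single gene was higher, and without WT replicate 3 the median was 0.01.

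The 15 lowest values also held secreted and matrix proteins outside these lists. Mgp, the matrix Gla protein that keeps soft tissue from calcifying, was 13.18, 13.59 and 13.22 in WT MEFs and 6.37, 7.16 and 5.62 in Rb1KO MEFs, a 124-fold decrease (adjusted p = 1.1e-07). In TKO MEFs it was 13.25, 13.47 and 13.42, within the range of WT (log2 fold change TKO against WT 0.05, adjusted p = 0.94). Sulf1, a sulfatase that trims heparan sulfate, was at least 69.2-fold lower in Rb1KO MEFs, the carboxypeptidase Cpq at least 29.9-fold and the procollagen-processing protease Tll1 at least 26.2-fold. For genes with a low or high WT replicate 3 the size is less certain. Tnfrsf11b (osteoprotegerin), the decoy receptor of RANKL, was 11.19, 11.30 and 8.13 in WT MEFs and at least 33.7-fold lower (fitted -7.52, and -8.56 without WT replicate 3). Cthrc1 was 11.73, 12.24 and 8.45 and at least 51.0-fold lower (fitted -6.74, -7.92 without WT replicate 3 and -6.02 without WT replicate 2). Thrombomodulin, Thbd, was 10.92, 11.86 and 5.88 and at least 21.4-fold lower (fitted -5.67, -7.51 without WT replicate 3, -4.52 without WT replicate 2 and -4.99 without WT replicate 1). Srpx2 was 9.05, 7.91 and 11.03 and at least 18.3-fold lower (fitted -5.45, -4.60 without WT replicate 3 and -6.17 without WT replicate 2).

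The largest increase was that of Tac1. Tac1, the precursor of the neuropeptide substance P, was 2.98, 3.07 and 2.93 in WT MEFs and 9.87, 9.17 and 9.96 in Rb1KO MEFs, at least 23.2-fold higher (fitted 6.67, adjusted p = 3.3e-09). On TKO arrays it was 2.98, 3.0 and 3.0, as low as on the WT arrays. The other Tac1 probe set was at background in all these groups (0.19, adjusted p = 0.33). 3110039M20Rik, an unnamed transcript, was at least 34.8-fold higher, with 10.42, 10.05 and 10.30 in Rb1KO MEFs and no value above 4.32 in WT or TKO MEFs. It was not particular to Rb1KO MEFs, since another group of the series, labelled TKO-Ras, had 9.14, 8.99 and 8.79. Gria1, a glutamate receptor subunit, was at least 3.60-fold higher and Slc17a6, a vesicular glutamate transporter, at least 5.50-fold. Elavl2, a neuronal RNA-binding protein, rose by 5.08 (4.24 without WT replicate 3 and 5.67 without WT replicate 1) and the water channel Aqp5 by 4.70. Both were also high in TKO MEFs, where neither differed from Rb1KO MEFs by the test (0.25 and -0.55, adjusted p = 0.88 and 0.052).

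Crabp1, the cellular retinoic acid binding protein, was 6.44, 7.99 and 11.47 in WT MEFs and 13.36, 12.93 and 13.32 in Rb1KO MEFs (4.57, adjusted p = 0.0042, 5.99 without WT replicate 3 and 3.47 without WT replicate 1). AW551984 was 3.95, 3.05 and 7.69 against 9.68, 8.55 and 10.33 (4.62, 6.02 without WT replicate 3 and 3.70 without WT replicate 2). Both had their highest WT value on replicate 3. The scavenger receptor Megf10 rose by 3.98 (3.26 without WT replicate 2), the retinoid-responsive gene Rarres1 by 3.89 and Artn (artemin), a neurotrophic factor, by 3.96. Ednrb, the endothelin receptor, was at background in WT MEFs and at least 6.36-fold higher (fitted 3.88, and 3.0 without Rb1KO replicate 3). Dynap was at least 11.7-fold higher (fitted 5.02, 4.04 without Rb1KO replicate 2 and 5.75 without Rb1KO replicate 3).

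**Figure D5:**
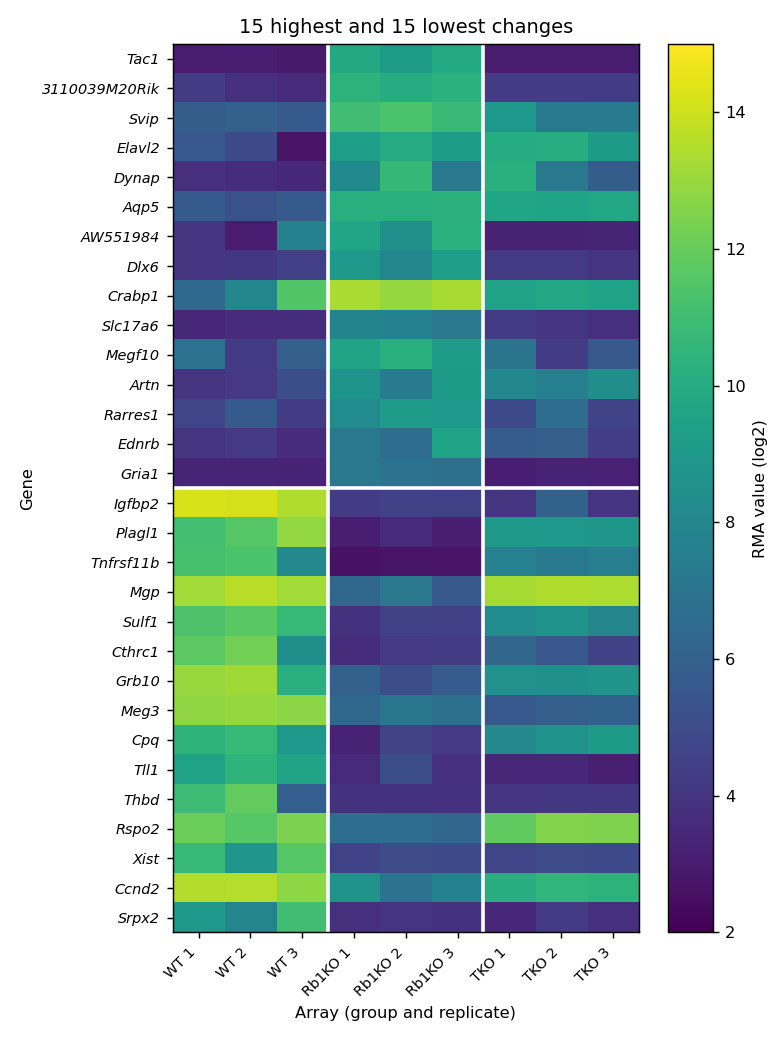
RMA values (log2, colour) of the 15 genes with the highest and the 15 with the lowest log2 fold change in Rb1KO over WT MEFs (rows, parted by a white line) on the 3 WT, 3 Rb1KO and 3 TKO arrays (columns). In the TKO columns Mgp and Rspo2 lie near their WT values, and Igfbp2, Meg3, Tll1 and Xist are low as in the Rb1KO columns.

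Some of these genes are neighbours. Dlx6, a homeobox factor of limb and jaw, was at background in WT MEFs and at least 12.2-fold higher (adjusted p = 1.2e-06), and it lies within 5 measured genes of Tac1 in the RefSeq order. Between them lies Dlx5, named after its values were seen, with a mean of 5.76 in WT MEFs and 9.42 in Rb1KO MEFs (3.65, adjusted p = 1.5e-06), and next to them Dlx6os1 (2.07, adjusted p = 3.7e-04). Of the 10 nearest neighbours of Tac1, again among genes above background on an array of WT or Rb1KO MEFs, 4 were higher and 0 lower. On chromosome 6, 20.4% of such genes were higher and 19.6% lower. On the autosomes and X the shares ran from 13.9% to 27.7% higher and from 10.5% to 21.9% lower. Svip, an inhibitor of the degradation of misfolded proteins, was 5.84, 5.98 and 5.68 against 10.99, 11.33 and 10.78 (5.20, adjusted p = 3.4e-06), and Slc17a6 is the gene 3 places from it. Of the 10 neighbours of Svip 5 were higher and 2 lower. The 10 neighbours of Mgp held 3 higher and 0 lower, those of Grb10 3 and 3, those of Igfbp2 1 and 1, and those of Meg3 and of Plagl1 each 1 and 2.

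Of 40 limb and mesenchyme factors, 9 were lower, 5 were higher and 26 did not pass, and 11 and 8 without WT replicate 3. That is 35.0% called, beside 27.9% of all genes. The number higher was 2 or 3 without Rb1KO replicate 1, Rb1KO replicate 3, WT replicate 1 or WT replicate 2. Foxf1, a forkhead factor of mesenchyme, fell by 3.06 and Tbx15, a factor of mesenchymal patterning, by 2.05, from 10.34, 10.54 and 10.79 to 8.55, 8.47 and 8.49 (adjusted p = 1.1e-06). Twist2, a repressor of mesenchymal differentiation, rose by 2.06, from 8.62, 8.41 and 8.79 to 10.64, 10.66 and 10.72 (adjusted p = 5.2e-06). Gata6 stood at -2.31 (adjusted p = 0.016, -3.27 without WT replicate 3, and not passing without Rb1KO replicate 1, Rb1KO replicate 3, WT replicate 1 or WT replicate 2). Of 33 Hox genes 3 were lower and 1 higher, a share of 12.1% that lies below the 27.9% of all genes, and 17 were at background in both groups. Hoxb9 rose by 1.02 (adjusted p = 2.9e-04), and of the 4 calls it alone held whichever of the 6 arrays was left out. Hoxb2 was 7.58, 8.92 and 5.32 in WT MEFs and Hoxb4 7.65, 7.85 and 5.50, so that both were close to their Rb1KO values on WT replicate 3. Their log2 fold changes were -2.05 and -1.62, and -3.03 and -2.37 without WT replicate 3. Without any other array of the comparison neither passed, and without WT replicate 3 the list held 7 lower.

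Enzymes of detoxification moved both ways. Of 30 xenobiotic, glutathione and antioxidant enzymes, 10 were lower, 6 were higher and 14 did not pass, and 6 were lower without Rb1KO replicate 1. The cytochrome Cyp1b1 was 12.25, 12.51 and 11.50 against 7.76, 6.64 and 7.98 (-4.63, adjusted p = 2.0e-05). The peroxidase Gpx7 of the endoplasmic reticulum fell by 4.39 and the epoxide hydrolase Ephx1 by 3.53, and Aldh1a1 sank to background, at least 3.27-fold lower (fitted -3.82, -5.01 without WT replicate 3 and -3.16 without WT replicate 2). The 6 that were higher included the transferase Gsta4 (1.95), Gclm (1.30) and Gclc (1.24), the subunits of the enzyme that starts glutathione synthesis, the glutathione reductase Gsr (1.25) and the quinone reductase Nqo1 (1.18).

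Of 32 chemokines, cytokines and NF-kB genes, 7 were higher, 3 were lower and 22 did not pass, and 9 and 5 without WT replicate 3, and 1 was lower without Rb1KO replicate 3. The share called, 31.25%, was close to the 27.9% of all genes. The chemokine Cxcl12, which holds stem cells in the marrow, fell by 3.73, from 13.49, 13.92 and 12.16 to 9.28, 10.10 and 9.02. The inflammatory chemokines Ccl2 and Ccl7 rose by 2.33 and 2.22, and Cxcl10, an interferon-induced chemokine, by 3.13 (3.83 without WT replicate 3). Of 28 genes of the interferon response 1 was lower, Ifit2 (-2.10, adjusted p = 0.0020), and 27 did not pass. When WT replicate 3 was left out, 6 were higher and 1 lower. Of 12 genes of MHC class I and antigen processing 2 were higher, 16.7% of the list beside 27.9% of all genes called. This number was 8 without WT replicate 3, 1 without Rb1KO replicate 2 and 0 without any other array.

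The 2 knockouts were compared directly, as TKO against Rb1KO, since the contrasts of each knockout with WT rest on the same 3 WT arrays. The labels give Rb1KO MEFs a deletion of Rb1 and TKO MEFs deletions of all 3 genes. On the probe sets used, Rbl1 RNA was lower in TKO than in Rb1KO MEFs, whereas Rbl2 RNA was not. Whether the RNA follows the deletions was not tested. Rbl2 was 5.37, 5.27 and 5.71 in TKO MEFs, close to background but above its values in Rb1KO MEFs (log2 difference TKO minus Rb1KO 1.27, adjusted p = 0.0041). Its other probe set was at background in both knockouts (4.43, 4.37 and 4.64 in TKO MEFs, 4.39, 3.88 and 3.83 in Rb1KO MEFs). Rbl1 was called lower in TKO MEFs. Rb1 was 6.97, 7.02 and 7.43 in TKO MEFs against 7.51, 7.74 and 7.51 and did not pass. Where these probe sets lie relative to the deletions is not known. Of all genes, 1738 (9.55%) differed between the knockouts, 1077 being higher in TKO MEFs (5.92%) and 661 lower (3.63%). Among the 5076 genes called in Rb1KO against WT MEFs, 1031 differed between the knockouts (20.3%), and for 934 of these the TKO value lay towards WT or beyond it. A difference towards WT is favoured here, because the same Rb1KO arrays enter both contrasts. Cell division genes did not follow this: of 33 replication genes 1 was higher in TKO than in Rb1KO MEFs and 0 lower, and of 29 mitosis genes 1 was higher, Ccnb2 (log2 difference 0.85, adjusted p = 0.017). Cdc6 was 9.97, 9.81 and 9.94 in TKO MEFs (log2 difference -0.10) and Aurkb between 10.12 and 10.32 (-0.03).

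The genes with the largest differences between the knockouts, among those called in both contrasts, were of several kinds. Mfap5 was 8.44, 8.89 and 6.19 in WT MEFs, between 3.91 and 4.33 in Rb1KO MEFs and between 10.38 and 10.83 in TKO MEFs (log2 difference TKO minus Rb1KO 6.5, adjusted p = 4.0e-05). Ndnf, a secreted neurovascular factor, was between 4.64 and 4.77 in Rb1KO MEFs and between 9.92 and 10.83 in TKO MEFs (5.72, adjusted p = 2.9e-04). Rps4l, a ribosomal protein gene, was between 3.90 and 4.56 against 9.57 to 10.41 (5.68, adjusted p = 2.1e-04). The opposite was seen for Efemp1, a matrix glycoprotein, which was between 10.38 and 11.22 in Rb1KO MEFs and at background in TKO MEFs (fitted -6.79, adjusted p = 2.5e-06), for Id4, an inhibitor of helix-loop-helix factors (-4.85, adjusted p = 2.8e-04), and for the ligand Wnt5a, also at background in TKO MEFs (fitted -4.72, adjusted p = 5.3e-06). Against WT MEFs Id4 was higher in Rb1KO MEFs (2.59, and 1.95 without WT replicate 3) and Wnt5a lower (-1.69). Efemp1 was lower as well (-1.37, adjusted p = 0.035), a call lost without WT replicate 3 (-0.79), Rb1KO replicate 1 or Rb1KO replicate 2. Of the 25 genes higher by a fitted 8-fold or more in Rb1KO over WT MEFs, 15 differed between the knockouts. Of the 147 lower by a fitted 8-fold or more, 66 did. Among all genes called in Rb1KO against WT MEFs, 20.3% differed. In TKO against WT MEFs, 14 of the 25 were also called higher and 110 of the 147 lower, against the same WT arrays.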

How the data were processed

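Total RNA from MEFs of 4 groups, 3 arrays each (WT, Rb1KO, TKO and TKO-Ras), was read on Affymetrix MOE430 2.0 arrays. The authors deposited log2 values made by RMA in Partek 6.5 (background correction, quantile normalization between arrays and summary per probe set), so that global shifts between arrays are removed, values near background are compressed and a true zero is lacking. Of 45101 deposited rows, 64 control probe sets were left out and 45037 tested. GEO's platform annotation gave 34945 a single gene, 932 several and 9160 none. For each of 18194 genes the probe set with the highest mean over 12 arrays was used. No further normalization was applied.

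limma 3.58.1 in R 4.3.3 (statmod 1.5.0 for the replicate block) was fitted to all 12 arrays by group (8 residual degrees of freedom), with Benjamini-Hochberg adjustment over all 45037 probe sets, and tested on simulated data with known changes. Tables and plots were made with data.table (version 1.17.8), Python 3.11.15, pandas 2.3.3 and matplotlib 3.10.9. The number of arrays limits the precision, and arrays give no read depth. The comparisons were Rb1KO against WT and TKO against Rb1KO. The rule for named genes took the pocket protein genes, Meg3, Rian, Mirg, Dlk1, Cdkn2a, Cdkn2b and sex-linked genes, the 15 highest and 15 lowest called changes without overlap, from each list at most 4 called members, by size of change, and 2 that did not pass, the most abundant marker of other cell types, and the 6 highest and 6 lowest differences of TKO against Rb1KO among genes called in both contrasts. Not all are given, and other members (such as Col1a1, Col3a1, Fn1, E2f1, Ndn, Airn, Tyms, Igf1r, Igfbp6, Gclm, Gclc, Gsr, Nqo1, Dlx5 and the genes whose promoters are shown) were chosen after their values were seen. The members and gene lists were chosen with earlier results of these data known. Alternatives changed the variance model, array weights, scaling, filter, choice of probe set and samples fitted, and left out each array. Promoter windows came from RefSeq (GRCm38.p6). Neighbours of genes were added after their values were seen.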

Additional observations from a re-analysis of the deposited data

How the results depend on the processing

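With each array left out in turn, 2236 to 2897 genes were higher in Rb1KO than in WT MEFs and 1768 to 2479 lower, and under the other alternatives 2170 to 4083 and 1789 to 2953. Of 169 named genes, 133 kept their direction and their side of the threshold under every alternative run. The 4 Hox calls became 2 with an intensity trend and robust hyperparameters, 2 without moderation of the variance, 9 with array weights, 9 with the mean of all probe sets, 1 with only the groups compared, and 1 to 8 with an array left out. TKO against Rb1KO gave 1630 genes higher and 1205 lower with array weights, and 714 to 870 higher and 401 to 528 lower with an array left out. Directions turned for genes that did not pass or that another probe set read. With an array left out Krt19 ran from -0.59 to 1.39, Scd1 from -0.34 to 0.71, Cdkn2b from -0.090 to 0.56 and Acta1 from -1.68 to 0.018. Krt19 was -0.056 with array weights, Scd1 -0.0030 with cyclic loess, and Dlk1 0.12 and Fabp4 0.038 with only probe sets without a suffix. As the median or the 99th percentile of the olfactory receptors, background was 3.84 or 5.82. The cause was not tested. Samples with the same replicate number deviated together with correlations of 0.0263, 0.154 and 0.191, so the numbers were not taken as pairs. With the replicate number as a block, 2771 genes were higher and 2241 lower, 874 and 1031 by 2-fold or more, with 5 Hox, 17 matrix, 33 replication and 28 mitosis genes called, and TKO against Rb1KO gave 1022 higher and 662 lower.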

Other observations

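Stress and growth regulators outside the comparisons above moved both ways. Of 24 heat shock, ER stress and immediate early genes, 6 were lower in Rb1KO than in WT MEFs, 2 were higher and 16 did not pass. The share called was 33.3%, beside 27.9% of all genes. Fos, a subunit of the AP-1 factor, was 11.75, 11.93 and 11.73 in WT MEFs and 7.33, 8.15 and 8.95 in Rb1KO MEFs (-3.66, adjusted p = 0.0016 from limma). The groups lay well apart. Fosl1, another AP-1 subunit, was 8.18, 7.17 and 6.08 against 9.37, 10.49 and 8.79 (2.41, adjusted p = 0.0086), and the chaperone Hspa1a had a log2 fold change of -2.48. Without Rb1KO replicate 1 a single gene of the list was higher and 4 lower. Of 10 genes of the Myc and Max network, 3 were higher and 1 lower, a share of 40% called. Mxd4, a Myc antagonist, was 10.40 ± 0.49 (SD, n = 3) in WT MEFs and 7.35 ± 0.37 (SD, n = 3) in Rb1KO MEFs (-3.05, limma adjusted p = 6.6e-06), and Mxd3 rose by 1.09. Myc was 9.75, 9.57 and 7.32 against 10.35, 10.94 and 10.07 (1.58, adjusted p = 0.047, 0.80 without WT replicate 3, and not passing without any 1 Rb1KO array).

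Metabolic and pluripotency genes had few calls. Of 18 glycolysis genes 1 was higher, the pyruvate kinase Pkm (0.73), and 1 lower, the regulatory enzyme Pfkfb3 (-2.36). That is 11.1% called, beside 27.9% of all genes. Of 21 genes of sterol and fatty acid synthesis 1 was higher, the regulator Srebf1 (0.50), and 3 without WT replicate 3 or Rb1KO replicate 2. Of 12 pluripotency factors 0 passed the test by limma, and 0 had an unadjusted p under 0.05. Of 15 cadherins and EMT factors 33.3% were called, beside 27.9% of all genes. In that list 4 were lower, with log2 fold changes of -0.87 for the repressor Zeb1, -1.06 for Snai2 and -0.72 for the cadherin Cdh2. Cdh1 was called higher (0.68, adjusted p = 0.038) while at background in both groups, and the call held only without WT replicate 3 when an array was left out.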
